A study of Rattus norvegicus with 9 samples.

Results

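Hepcidin and the iron handling genes of the rat liver were read on 9 expression arrays. The 8 genes were chosen by name. They are Hamp (hepcidin), Tfrc and Tfr2 (the transferrin receptors), Tf (transferrin), Fth1 and Ftl1 (the ferritin chains), Slc40a1 (ferroportin) and Cp (ceruloplasmin). The array table has 14377 genes with a probe set that names the gene alone, and Tf, Fth1 and Ftl1 are not among these. A probe set was taken where one of its gene symbols was one of these names, which gave 14 probe sets of 31042, and the brightest of a gene's probe sets on average stood for the gene. The detection calls were "present" for all 14 probe sets on all 9 arrays.

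The arrays came from the livers of male Sprague-Dawley rats, with 1 array per rat and 3 rats in each group. Vehicle rats were the controls. CCl4 rats were injected with carbon tetrachloride in olive oil, a liver toxin used to cause fibrosis, repeatedly over 8 weeks. CCl4+Rot rats had the same CCl4 injections and also rottlerin at 2.5 mg/kg, from 2 weeks after the first CCl4 injection, which the study used as an activator of BK potassium channels. The age of the rats, the content of the vehicle and the number of rottlerin injections are not given in the sources used here. CCl4+Rot against CCl4 compares injured liver with and without the rottlerin injections, and no group had rottlerin alone. Whether CCl4 rats were given the solvent of rottlerin is not stated either.

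Hepatocytes release hepcidin, a peptide hormone that binds ferroportin, the cell membrane exporter of iron, and leads to its degradation. Hepcidin transcription is raised by iron through the BMP and SMAD pathway and by inflammation through interleukin-6 and STAT3. Hepatocytes also make transferrin, which carries iron in plasma, and ceruloplasmin, which oxidises the exported iron, while ferritin stores iron inside the cell. Transferrin receptor 1 and the ferritins are controlled largely through iron-responsive elements in their mRNAs, at the level of mRNA stability for the receptor and of translation for ferritin, and an array does not read the second.

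None of the 8 genes differed between groups by limma (1.5-fold or more with an adjusted p below 0.05) in any of the 3 comparisons. Under that rule, 0% of all probe sets were called for CCl4 against vehicle, 0.00322% for CCl4+Rot against CCl4 and 0.0258% for CCl4+Rot against vehicle. At an unadjusted p below 0.05, 0 of the 8 genes passed in each comparison, whereas 14.0%, 4.26% and 9.58% of the 11231 probe sets present on every array did so. No gene differed by 1.5-fold at its brightest probe set. An exact permutation test of 3 rats against 3 cannot give a two-sided p below 0.1, and 95% intervals are given below to show which sizes of change these arrays leave possible.

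CCl4 replicate 3 stood apart from the other arrays, and it touches the bright genes here. It had 12714 probe sets called present against 15550 to 16849 on the other arrays. Its median signal over all probe sets was 7.81, against 6.79 to 7.01 on the others, so its dim signals were raised. Over the probe sets present on every array its median was 9.53, against 9.51 to 9.58. Of the 200 probe sets with the highest mean signal, it held the lowest value of the 9 arrays for 167, with a median deviation of -0.43, against -0.04 to 0.16 on the others. Tf, Fth1, Ftl1 and Cp were each at their lowest on this array, while Hamp, also among the 200, was not. Values without this array are given below for these genes. All 8 hepatocyte markers (albumin, transthyretin and others) were present on all arrays, and their summed log2 level was 17.70 to 17.89 in vehicle, 17.33 to 17.84 in CCl4 and 17.80 to 17.91 in CCl4+Rot. In whole liver, fewer cells of a type and less RNA per cell cannot be told apart.

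**Figure D1:**
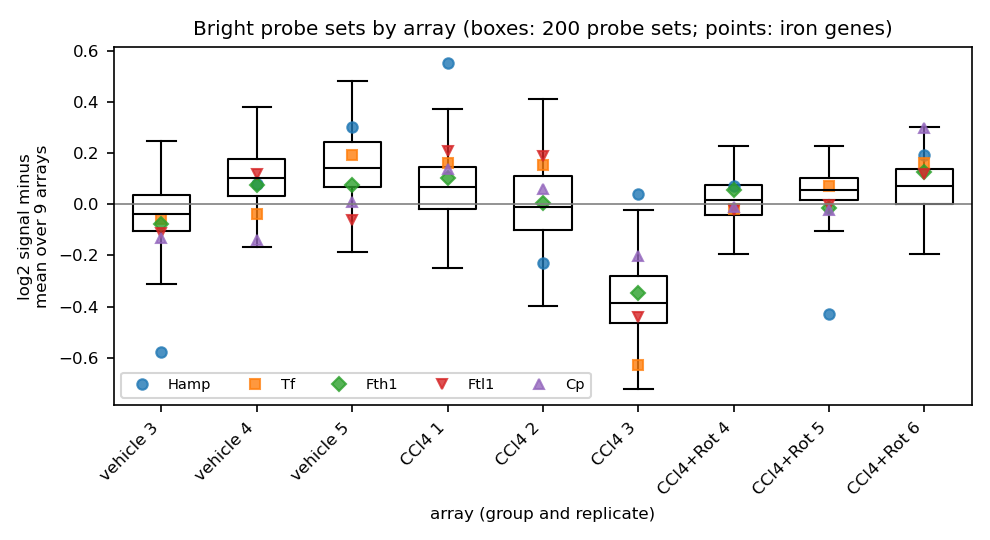
Deviation of bright probe sets on each array (x axis, group and replicate) from their mean over the 9 arrays (y axis, log2). Boxes hold the quartiles of 200 probe sets with whiskers to 1.5 times the box length, and coloured points are 5 iron genes; on CCl4 replicate 3 the box lies below 0, and Tf, Fth1, Ftl1 and Cp lie below 0 with it, while Hamp lies at 0.04 above its mean on the other 8 arrays.

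Hamp, the gene of the hormone itself, is on chromosome 1 in the array table and has a single probe set that names no other gene. The bases before its start in RefSeq (GRCr8, chr1:95300272-95300521, minus strand, 5′ to 3′ and ending next to the start) are shown because the pathways known to act on hepcidin, BMP with SMAD and interleukin-6 with STAT3, were measured on the same arrays. Capitals mark GGCGCC, the core of a BMP-responsive element, and a match to the STAT motif TTCNNNGAA.
Hamp: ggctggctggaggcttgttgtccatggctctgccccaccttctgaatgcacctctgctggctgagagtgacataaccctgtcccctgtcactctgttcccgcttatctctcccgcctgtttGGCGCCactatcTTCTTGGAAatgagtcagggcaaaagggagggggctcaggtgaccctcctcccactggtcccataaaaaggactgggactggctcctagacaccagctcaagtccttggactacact
The STAT match is TTCTTGGAA, 117 to 109 bases before the start, and GGCGCC lies 129 to 124 bases before it, so that they do not overlap. Of 33469 promoter windows of the same length, 7.667% hold TTCNNNGAA and 8.695% hold GGCGCC, on either strand. Searches for ACGTG, a hypoxia-responsive core, and for TGACNNNGC, an antioxidant-responsive core, gave no match in this window. Such a match is a string of letters and not a measured binding site.

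The Hamp signals on the log2 scale were 13.62, 14.28 and 14.50 in vehicle, 14.75, 13.97 and 14.24 in CCl4, and 14.27, 13.77 and 14.39 in CCl4+Rot. The highest and lowest values lay in different groups, the vehicle rats alone spanned most of the range of 1.13, and all 3 groups overlapped. The group means were 14.13 ± 0.46, 14.32 ± 0.40 and 14.15 ± 0.33 (SD, n = 3 each). CCl4 minus vehicle was 0.18 (SE 0.32, 95% interval -0.56 to 0.93, limma adjusted p = 0.831), and CCl4+Rot minus CCl4 was -0.17 (SE 0.32, 95% interval -0.91 to 0.57, limma adjusted p = 0.902). The hormone transcript was thus neither shown to differ nor shown to be equal, as the first interval still holds a rise, and the second a fall, of more than 1.5-fold. Leaving out vehicle replicate 3 alone changed CCl4 minus vehicle to -0.07.

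**Figure D2:**
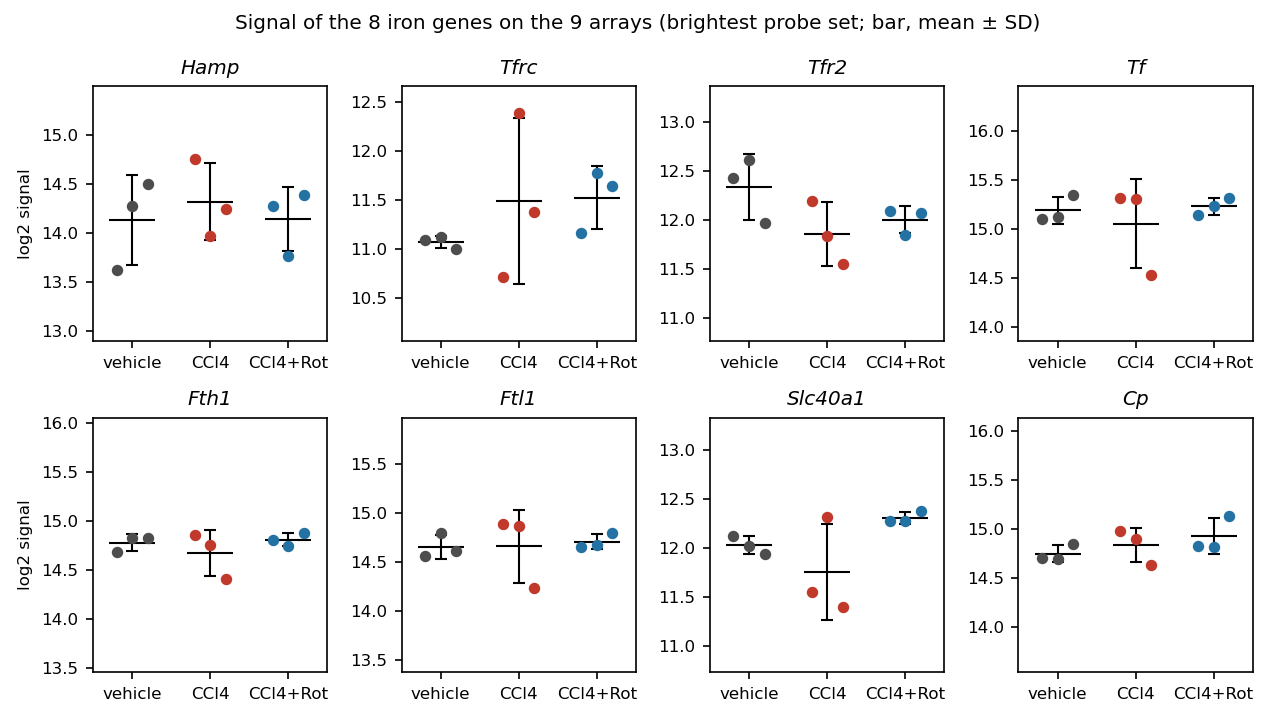
Log2 signal (y axis) of the 8 iron genes in the 3 groups (x axis), each point 1 rat and each bar the mean ± SD of 3; every panel spans the same height on the log2 scale, centred on the gene's mean. Groups overlap for every gene except Tfrc and Slc40a1 between CCl4+Rot and vehicle, and the CCl4 points spread most for Tfrc, Tf, both ferritins and Slc40a1.

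Tfr2, transferrin receptor 2, is made by hepatocytes and takes part in sensing transferrin iron upstream of hepcidin. Its log2 signals were 12.43, 12.62 and 11.97 in vehicle, 12.20, 11.84 and 11.55 in CCl4, and 12.10, 11.85 and 12.07 in CCl4+Rot. Both treated groups averaged below vehicle, but the vehicle rat at 11.97 lay among the treated rats. CCl4 minus vehicle was -0.48 (SE 0.24, 95% interval -1.05 to 0.09, limma adjusted p = 0.464), the lowest adjusted p among the 8 genes in that comparison. Its unadjusted p was 0.0868, and 0.0262 in a limma fit with robust estimation and a trend of the spread with signal, with an adjusted p of 0.272. The lowest Tfr2 value of all was on CCl4 replicate 3, and without that array the difference was -0.32.

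Tfrc, transferrin receptor 1, takes up iron-loaded transferrin, and its mRNA is stabilised when a cell is short of iron. It lies on chromosome 11 in the array table and has a pair of probe sets that name it alone. Its window of bases before the start (RefSeq, GRCr8, chr11:81690319-81690568, minus strand) is shown for comparison with Hamp. Capitals mark GGCGCC at 118 to 113 bases and the hypoxia-responsive core ACGTG at 31 to 27 bases before the start.
Tfrc: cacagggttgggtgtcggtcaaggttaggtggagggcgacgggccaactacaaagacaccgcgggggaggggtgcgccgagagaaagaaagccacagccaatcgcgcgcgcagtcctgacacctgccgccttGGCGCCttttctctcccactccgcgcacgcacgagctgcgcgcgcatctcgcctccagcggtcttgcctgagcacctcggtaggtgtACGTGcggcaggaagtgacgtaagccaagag
GGCGCC is thus found in both windows, the STAT motif in that of Hamp, and ACGTG, which 16.57% of all windows hold, in that of Tfrc. The windows of Tfr2, Tf, Slc40a1 and Cp held none of the 4 motifs searched, TGACNNNGC among them, which is in 10.08% of all windows. Windows were at hand for 6 of the 8 genes, and those of Fth1 and Ftl1 were not analysed here.

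On its brighter probe set, Tfrc read 11.09, 11.12 and 11.00 in vehicle, 10.71, 12.39 and 11.38 in CCl4, and 11.16, 11.77 and 11.64 in CCl4+Rot. Vehicle rats were close together (SD 0.061), whereas the CCl4 rats held both the lowest and the highest value of all 9 (SD 0.84). CCl4+Rot minus vehicle was 0.46 (SE 0.40, 95% interval -0.48 to 1.39, limma adjusted p = 0.877), and all 3 CCl4+Rot rats lay above all 3 vehicle rats (two-sided exact permutation p = 0.1, the smallest possible). The standard error takes in the wide CCl4 group, and with only the compared groups in the limma fit the unadjusted p was 0.0648 and the adjusted p 0.435. The dimmer probe set gave 9.09, 9.29 and 9.00, then 8.81, 10.16 and 10.15, then 9.40, 9.73 and 9.82, in the same order of groups. It repeated the separation of CCl4+Rot from vehicle, by 0.53, and the low value of CCl4 replicate 1, but on CCl4 replicate 3 it was nearly as high as on replicate 2, where the brighter one was not. CCl4 minus vehicle was 0.42 on the brighter probe set (limma adjusted p = 0.683) and -0.02 without CCl4 replicate 2, so 1 rat set the direction on that probe set. On the dimmer one it was 0.58 (limma adjusted p = 0.545), with CCl4 replicates 2 and 3 both above every vehicle rat.

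Erythroid precursors are rich in Tfrc, and blood transcripts were read beside it. Hemoglobin beta (Hbb) read 13.78 to 14.02 in vehicle, 13.06 to 13.47 in CCl4 and 13.19 to 13.85 in CCl4+Rot. The summed level of the 5 measured erythroid genes was 13.83 to 14.07, 13.13 to 13.52 and 13.24 to 13.90 in these groups, but this sum is nearly all Hbb. The markers Epb42 and Ahsp were called present on no array. The other markers did not separate CCl4 from vehicle, with differences of -0.39 for Alas2 and 0.33 for Slc4a1 and overlap for both. The lower CCl4 level therefore rests on Hbb alone.

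Tf, transferrin, has a pair of probe sets on chromosome 8, both of which also name the neighbouring Srprb and so may read either gene. The brighter one read 15.10, 15.12 and 15.35 in vehicle, 15.32, 15.31 and 14.53 in CCl4, and 15.14, 15.23 and 15.32 in CCl4+Rot. Only CCl4 replicate 3 departed from a band of 15.10 to 15.35. CCl4 minus vehicle was -0.14 (SE 0.24, limma adjusted p = 0.833) and 0.12 without that array, and CCl4+Rot minus CCl4 was 0.18 (limma adjusted p = 0.868) and -0.08 without it. The dimmer probe set did not follow the brighter (Pearson r = -0.20 over the 9 arrays). It read 12.11, 12.43 and 10.99 in vehicle, 10.54, 12.14 and 11.97 in CCl4, and 12.26, 12.36 and 12.59 in CCl4+Rot. Its CCl4+Rot values lay above all CCl4 values, by 0.85 on average (SE 0.51, 95% interval -0.33 to 2.03, limma adjusted p = 0.765), while 1 vehicle rat was nearly as low as the lowest CCl4 rat.

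Fth1 and Ftl1 encode the heavy and light chains of ferritin, the iron store. Their probe sets also name other loci, 2 for Fth1 and 5 for Ftl1, so they read ferritin transcripts together with any copies. Fth1 signals were 14.68, 14.83 and 14.83 in vehicle, 14.86, 14.76 and 14.41 in CCl4, and 14.81, 14.74 and 14.88 in CCl4+Rot. Ftl1 signals were 14.56, 14.79 and 14.61, then 14.88, 14.86 and 14.23, then 14.65, 14.67 and 14.79. Apart from CCl4 replicate 3, the values of each chain lay within a band from 14.68 to 14.88 for Fth1 and from 14.56 to 14.88 for Ftl1. CCl4 minus vehicle was -0.10 for Fth1 (SE 0.17, 95% interval -0.50 to 0.30, limma adjusted p = 0.830), and 0.03 without CCl4 replicate 3. On the deposited scale this interval leaves out a rise or fall of 1.5-fold. With arrays centred on their medians the difference was -0.46 (SE 0.38), which does not leave out a fall of that size. CCl4 minus vehicle was 0.00 for Ftl1 (SE 0.21, 95% interval -0.49 to 0.50, limma adjusted p = 0.994), and 0.22 without CCl4 replicate 3. The highest signal of any probe set was 15.09 to 15.62 by array. Whether signals so near the top still follow the amount of RNA was not tested.

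The signals of Tf, Fth1 and Ftl1 ran together over the 9 arrays, with Pearson r of 0.92 for Tf with Fth1, 0.86 for Tf with Ftl1 and 0.88 for the ferritin chains. These points share CCl4 replicate 3, and over the other 8 arrays r was 0.54, 0.44 and 0.55. Hamp behaved the other way, with r of 0.37 with Fth1 over 9 arrays and 0.91 over the 8. These are descriptions among 28 pairs of genes and carry no test.

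Slc40a1, ferroportin, is the exporter that hepcidin acts on and is abundant in Kupffer cells as well as hepatocytes. Of its 3 probe sets on chromosome 9, the brightest (which also names LOC100911874) read 12.12, 12.02 and 11.94 in vehicle, 11.55, 12.31 and 11.40 in CCl4, and 12.27, 12.27 and 12.37 in CCl4+Rot. The CCl4+Rot rats sat in a narrow band (SD 0.057) above all vehicle rats, and the CCl4 group held a pair of rats below vehicle and 1 level with CCl4+Rot. CCl4+Rot minus CCl4 was 0.55 (SE 0.25, 95% interval -0.03 to 1.13, limma unadjusted p = 0.0597), and the adjusted p of 0.752 was the lowest of the 8 genes in that comparison. In the fit with robust estimation the unadjusted p was 0.0144 and the adjusted p 0.613. CCl4+Rot minus vehicle was 0.28 (SE 0.25, limma adjusted p = 0.878), with no overlap.

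The other ferroportin probe sets gave smaller differences. The middle one read 11.65, 11.67 and 11.47 in vehicle, 10.82, 11.93 and 11.12 in CCl4, and 11.58, 11.76 and 11.80 in CCl4+Rot, and CCl4+Rot minus CCl4 was 0.42 (limma adjusted p = 0.774). The dimmest, which names Slc40a1 alone, read 9.81, 9.68 and 9.72, then 9.23, 9.68 and 9.70, then 9.85, 9.65 and 9.88, and the same difference was 0.26 (limma adjusted p = 0.781). On both, CCl4+Rot overlapped vehicle, so the separation on the brightest was not repeated. Without CCl4 replicate 3 the CCl4+Rot minus CCl4 difference on the brightest was 0.37, and with array weights it was 0.20. Markers of several cell types had higher means in CCl4+Rot than in CCl4 too: all 8 of hepatocytes, all 6 measured of sinusoidal endothelium and all 7 measured of macrophages (Cd68, Clec4f, Csf1r and others). Without CCl4 replicate 3 these counts were 5, 5 and 7. Of these macrophage markers 1 passed an unadjusted limma p of 0.05, as 4.26% of the probe sets present on every array did. The macrophage markers' summed log2 level was 13.86 to 14.30 in vehicle, 13.81 to 14.31 in CCl4 and 14.30 to 14.57 in CCl4+Rot. The part of these cells in the Slc40a1 values was not tested.

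Cp, ceruloplasmin, is a copper oxidase that prepares exported iron for transferrin and is also an acute-phase protein. Its brightest probe set, 1 of 3 on chromosome 2 that name it alone, read 14.71, 14.70 and 14.85 in vehicle, 14.98, 14.90 and 14.64 in CCl4, and 14.83, 14.82 and 15.14 in CCl4+Rot. The second probe set read 14.58, 14.45 and 14.63, then 14.86, 14.85 and 14.65, then 14.74, 14.74 and 15.14. On the first the groups overlapped, and on the second every treated rat lay above every vehicle rat. The second gave 0.23 for CCl4 minus vehicle (SE 0.18, 95% interval -0.18 to 0.64, limma adjusted p = 0.610) and 0.32 for CCl4+Rot minus vehicle (SE 0.18, 95% interval -0.09 to 0.73, limma adjusted p = 0.737). The first gave 0.09 and 0.18, and the first of these was 0.19 without CCl4 replicate 3. CCl4+Rot minus CCl4 on that probe set was 0.09, and -0.01 without the array. The third read 10.35 to 10.96 in vehicle, 10.71 to 11.20 in CCl4 and 10.62 to 10.99 in CCl4+Rot, with overlap throughout. All 3 probe sets thus had higher means in both treated groups than in vehicle, by 0.09 to 0.32, and no difference passed the test.

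**Figure D3:**
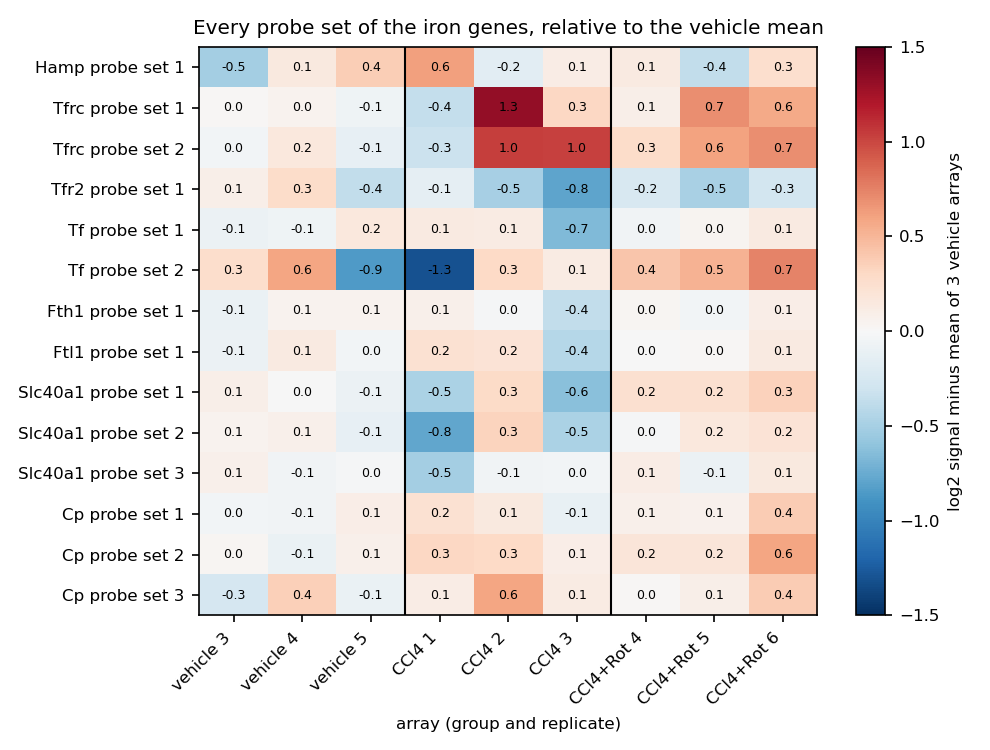
Log2 signal of every probe set of the iron genes (rows) on each array (columns), relative to the mean of the 3 vehicle arrays (colour and printed value). Probe sets of a gene share some CCl4 rats and not others: both of Tfrc are low on replicate 1 and high on replicate 2, all of Slc40a1 are low on replicate 1, and those of Tf differ there, and the column of CCl4 replicate 3 is most clearly below vehicle for Tfr2, Tf probe set 1, both ferritins and a pair of Slc40a1 probe sets.

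Over the 8 genes, 4 had a higher and 4 a lower mean in CCl4 than in vehicle, with a median difference of -0.05 against -0.01 over the probe sets present on every array. Without CCl4 replicate 3 the tally was 6 higher and 2 lower, as it was with quantile normalization, and with arrays centred on their medians it was 1 and 7. For CCl4+Rot against CCl4, 7 were higher and Hamp was lower, with a median of 0.11 against 0.02. That tally turned round without CCl4 replicate 3, to 2 higher and 6 lower with a median of -0.02, and was 3 and 5 with quantile normalization. For CCl4+Rot against vehicle, 7 were higher and Tfr2 was lower, with a median of 0.04 against -0.01, and with arrays centred on their medians 3 were higher and 5 lower. Groups did not overlap for 0, 0 and 2 of the 8 genes in these comparisons, where 25.4%, 12.9% and 29.6% of the probe sets present on every array did not. The share of the iron genes without overlap was therefore at or below that of those probe sets.

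**Figure D4:**
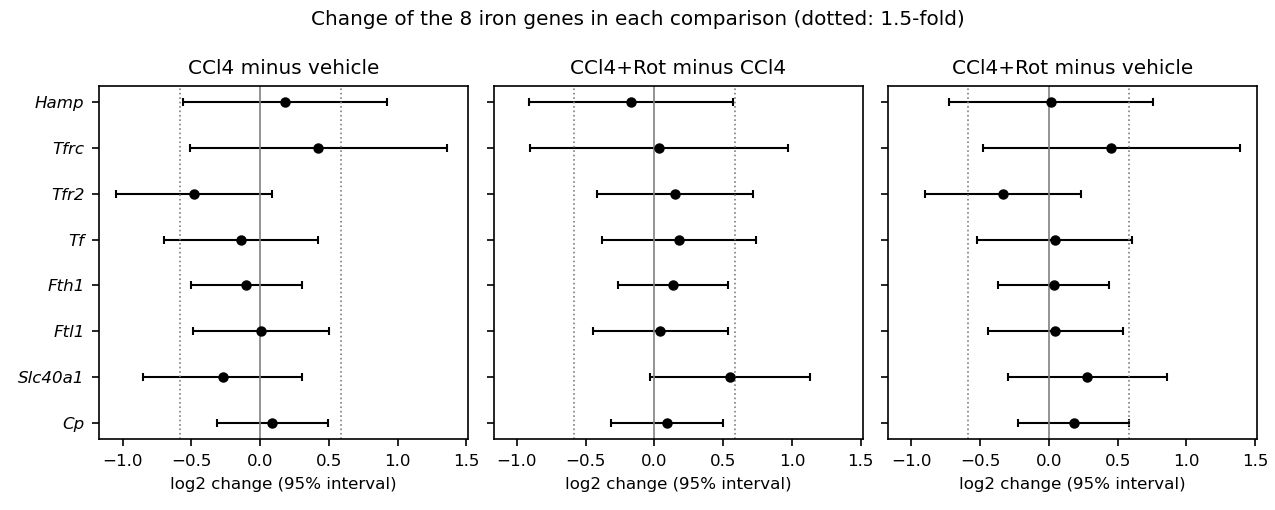
Difference in mean log2 signal (x axis, points) with its 95% interval from limma (bars) for the 8 iron genes (y axis) in the 3 comparisons, with dotted lines at 1.5-fold. Every interval includes 0, and the narrowest are those of Fth1 and Cp.

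The genes around hepcidin and ferritin were then read as 6 lists, of which 71 of 81 genes were measured by a probe set that names the gene alone. Among those not measured so was Tmprss6, the protease that restrains hepcidin. Of the 71 measured genes, 1 was called present on no array. By limma 0 of the 71 were called in any comparison. At an unadjusted p below 0.05, 10 (14.1%) passed for CCl4 against vehicle, 6 (8.45%) for CCl4+Rot against CCl4 and 6 (8.45%) for CCl4+Rot against vehicle, beside 14.0%, 4.26% and 9.58% of the probe sets present on every array. Groups did not overlap for 15 (21.1%), 11 (15.5%) and 25 (35.2%) of them, beside 25.4%, 12.9% and 29.6%. The list genes thus passed about as often as those probe sets, except for a larger share between CCl4+Rot and CCl4 that rests on 6 genes. The sets differ, as some list genes were not present on every array and each is read by 1 probe set. With the fit that lets the spread follow the signal and uses robust estimation, 1.12%, 0.00322% and 0.776% of all probe sets were called in the 3 comparisons, and 3, 0 and 2 of the 71 genes were called.

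In the BMP and SMAD arm of hepcidin control, 16 genes were measured and the median difference was 0.02 for CCl4 minus vehicle. Bmp6, the ligand that signals liver iron to hepatocytes, read 7.77, 7.81 and 7.65 in vehicle, 7.79, 8.08 and 8.65 in CCl4, and 8.02, 8.49 and 8.27 in CCl4+Rot. It was above every vehicle rat in CCl4+Rot, by 0.52 (SE 0.25, limma adjusted p = 0.670), and overlapped vehicle in CCl4. Id1, a target gene of the same pathway, read 7.95, 8.34 and 7.80 in vehicle, 8.48, 9.06 and 9.12 in CCl4, and 8.36, 8.04 and 8.60 in CCl4+Rot, so that only CCl4 was clear of vehicle, by 0.85 (SE 0.26, limma adjusted p = 0.285), and by 0.74 without CCl4 replicate 3. Acvr1, a type I BMP receptor, was 9.81 to 10.22 in CCl4+Rot and 8.93 to 9.32 in CCl4, a difference of 0.86 (SE 0.21, limma adjusted p = 0.635). The receptor Bmpr1a went the opposite way, with 8.64 to 9.69 in CCl4 and 8.19 to 8.57 in CCl4+Rot (limma adjusted p = 0.760). The 9.69 was on CCl4 replicate 3, and Bmpr1a in CCl4 minus vehicle was 0.60 with that array and 0.275 without it. The inhibitor Smad6 was 0.63 lower in CCl4+Rot than in CCl4 (SE 0.26, limma adjusted p = 0.748). Its CCl4 values were 7.70, 7.62 and, on CCl4 replicate 3, 8.38. Hfe, whose loss causes hemochromatosis, read 9.66, 9.69 and 9.66 in vehicle and 10.03, 9.99 and 10.07 in CCl4+Rot, with 9.38 to 10.21 in CCl4.

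In the inflammatory arm 10 genes were measured, of which 7 were called present on all 9 arrays and 1 on no array. The signal transducer stood above vehicle and the receptor below it. Stat3 was 1.17 higher in CCl4 than in vehicle (SE 0.23, limma adjusted p = 0.202, and 0.0216 with robust estimation), and 0.985 higher without CCl4 replicate 3. Its log2 signals were 8.27, 8.23 and 8.46 in vehicle, 9.35, 9.25 and 9.85 in CCl4, and 8.53, 8.82 and 9.12 in CCl4+Rot. Stat3 in CCl4+Rot minus CCl4 was -0.66 (SE 0.23, limma adjusted p = 0.724), without overlap. Il6r, the interleukin-6 receptor, read 11.47, 11.83 and 11.88, then 10.94, 11.18 and 10.73, then 11.30, 11.14 and 10.95, and was lower than vehicle by -0.78 in CCl4 (SE 0.20, limma adjusted p = 0.249, and 0.0401 with robust estimation). Cebpa, a transcription factor of hepatocytes that acts on the hepcidin gene, read 12.37, 12.08 and 12.28 in vehicle, 11.45, 11.26 and 11.92 in CCl4, and 12.62, 12.47 and 12.49 in CCl4+Rot. All CCl4 rats were below all others, and CCl4+Rot minus CCl4 was 0.98 (SE 0.21, limma adjusted p = 0.608, and 0.0980 with robust estimation). Hamp overlapped between all groups in the same livers.

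Among 18 genes of iron uptake, reduction and handling inside the cell, Heph and Scara5 had the smallest p values against vehicle. Heph, hephaestin, is a membrane-bound relative of ceruloplasmin, and it read 6.79, 6.64 and 6.38 in vehicle, 7.73, 8.53 and 8.46 in CCl4, and 8.55, 8.01 and 8.31 in CCl4+Rot. All treated rats were above all vehicle rats, by 1.64 in CCl4 and 1.68 in CCl4+Rot (SE 0.27 each, limma adjusted p = 0.178 and 0.167, and 0.0193 and 0.0136 with robust estimation). Heph was called present on 2 of the 3 vehicle arrays. Its vehicle values lay below the medians of those arrays (6.79 to 6.92), so the size of its rise is uncertain. Scara5, a scavenger receptor that binds ferritin, read 7.09, 6.11 and 6.65 in vehicle, 7.94, 8.09 and 7.32 in CCl4, and 8.51, 9.11 and 9.00 in CCl4+Rot. Its groups were ordered without overlap, and CCl4+Rot minus vehicle was 2.26 (SE 0.33, limma adjusted p = 0.148, and 0.00598 with robust estimation). CCl4+Rot minus CCl4 was 1.09 (SE 0.33, limma adjusted p = 0.712). Markers of stellate cells and myofibroblasts (Col1a1, Col3a1, Pdgfrb and others) were higher in the treated groups as well. All 8 had higher means in both treated groups, and their summed log2 level was 12.91 to 13.72 in vehicle, 14.20 to 15.02 in CCl4 and 14.82 to 15.11 in CCl4+Rot. Their part in the Heph and Scara5 values was not tested.

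In the same list, Lcn2, the siderophore-binding lipocalin and an acute-phase gene, read 8.67, 8.75 and 9.19 in vehicle, 9.73, 12.18 and 11.68 in CCl4, and 10.31, 9.46 and 12.27 in CCl4+Rot. Every treated rat was above every vehicle rat, but the treated rats differed among themselves by over 2 log2 units, so that CCl4 minus vehicle was 2.33 with an SE of 0.83 (limma adjusted p = 0.341). Slc39a14, a hepatocyte importer of iron that is not bound to transferrin, lay between 11.75 and 12.03 on all 9 arrays. Aco1, the iron-regulatory protein 1, was 11.72 to 11.88 in vehicle, 11.12 to 11.76 in CCl4 and 11.49 to 11.91 in CCl4+Rot.

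Of 9 genes that capture or break down heme, Hmox1, the inducible heme oxygenase, read 10.11, 9.44 and 9.22 in vehicle, 10.26, 10.70 and 10.72 in CCl4, and 10.22, 10.56 and 10.55 in CCl4+Rot. It was 0.97 above vehicle in CCl4 (SE 0.27, limma adjusted p = 0.261, and 0.0532 with robust estimation) without overlap. In CCl4+Rot it was 0.85 above vehicle (SE 0.27, limma adjusted p = 0.429), also without overlap. Hmox2, the constitutive form, lay the other way, with 11.09 to 11.31 in vehicle and 10.57 to 10.93 in CCl4 (difference -0.52, SE 0.19, limma adjusted p = 0.349). Blvra, the next enzyme of heme breakdown, was 9.02 to 9.28 in vehicle and 9.57 to 9.75 in CCl4+Rot. Lrp1, the receptor of the heme-hemopexin complex, was 11.36 to 11.58 in vehicle and 11.62 to 11.84 in CCl4+Rot. Hpx, the plasma heme carrier, reached 15.31 and was lowest, at 14.69, on CCl4 replicate 3.

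All 8 genes of heme synthesis had lower means in CCl4 than in vehicle, with a median of -0.16 against -0.01 over the probe sets present on every array, but 0 passed an unadjusted limma p of 0.05 and every one overlapped. Hepatocyte markers lay the same way, with 7 of 8 lower and a median of -0.19. Without CCl4 replicate 3, 5 of the 8 heme synthesis genes were lower and 3 higher, with a median of -0.05. Hepatocyte markers without it were 4 lower and 4 higher, with a median of -0.02. Alas1, the rate-limiting enzyme, was 12.47 to 13.25 in vehicle, 12.04 to 13.18 in CCl4 and 12.90 to 13.54 in CCl4+Rot. Fech, which inserts the iron, was 10.77 to 11.43, 9.83 to 11.01 and 10.84 to 11.03, and its CCl4 minus vehicle difference of -0.58 was -0.23 without that array. Of 10 iron-sulfur cluster genes, Fdx1, a ferredoxin, was 0.56 higher in CCl4 than in vehicle (SE 0.21, limma adjusted p = 0.354) and Isca1, an assembly factor, was 0.41 lower by the same comparison (log2 change -0.41, SE 0.19, limma adjusted p = 0.438), both without overlap.

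**Figure D5:**
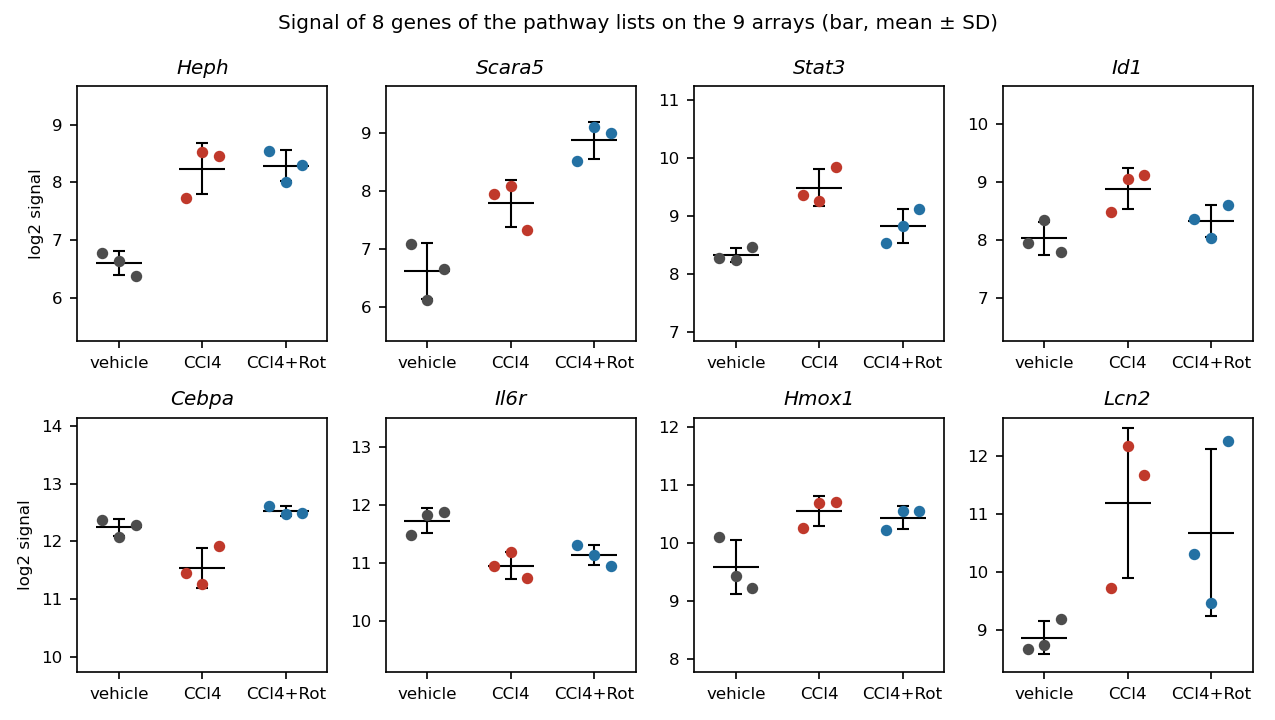
Log2 signal (y axis) of 8 genes of the hepcidin, iron and heme lists in the 3 groups (x axis), each point 1 rat and each bar the mean ± SD of 3; every panel spans the same height. Heph, Scara5, Stat3, Hmox1 and Lcn2 lie above vehicle in both treated groups, Il6r lies below it, and Cebpa is low in CCl4 alone.

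Among 9806 genes present on at least 3 arrays, those whose signal followed Hamp most closely over the 9 arrays were Yars2 (a mitochondrial tyrosyl-tRNA synthetase, Pearson r = 0.94), Cebpd (a C/EBP transcription factor of the acute phase, 0.93), Sqstm1 (the autophagy adaptor p62, 0.90), Vmp1 (an autophagy membrane protein, 0.89) and Echdc1 (0.87). Those that ran opposite to it were RGD1560925 (r = -0.92), Hdhd3 (-0.86) and Zfp207 (-0.86). In all, 0.367% of the genes had an r above 0.8 in either direction, and these are the extremes of that many genes over 9 points. Cebpd read 7.89, 8.33 and 8.57 in vehicle, 8.66, 8.32 and 8.29 in CCl4, and 8.40, 8.06 and 8.65 in CCl4+Rot, so that, as for Hamp, the spread lay within the groups and not between them.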

How the data were processed

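Biotin-labelled cRNA, made from total RNA of frozen liver, was read on Affymetrix rat GeneChips. The authors deposited 1 table of log2 signals and detection calls for 31099 probe sets; the submitters' processing notes name MAS5 and the affy package, and the linear signals average 500 on each array once 2% at each end are trimmed. The genome build of its annotation is not given in the sources used here. Without the 57 controls, 31042 probe sets were fitted as deposited with limma 3.58.1 (R 4.3.3; 3 group means, no covariate) and adjusted by Benjamini-Hochberg over all. Calls needed 1.5-fold and an adjusted p below 0.05.

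The genes and lists were chosen with earlier results of these data known. From the lists, genes called, or else the 2 with the smallest p in each comparison, were named, with Bmp6, Tmprss6, Hfe, Slc39a14, Hmox1, Lcn2 and Hpx in any case. The 5 genes most and 3 least like Hamp were named by Pearson r. A gene that this rule takes is not reported here. Uros, Urod and Glrx5, which it also takes, gave log2 changes from -0.60 to 0.21. The -0.60 was Uros in CCl4+Rot minus vehicle. Uros was called present on 0 vehicle, 1 CCl4 and 3 CCl4+Rot arrays, so its changes are not reliable. Promoter windows are the 250 bases before the RefSeq start (GRCr8), read for 6 of 8 genes. The fit was tested on simulated data. Alternatives were quantile normalization, median centring, filters on low signal and on detection, the compared groups alone, robust estimation (statmod 1.5.0), array weights, a replicate block, a signal floor, other choices of probe set, the methods' t-test, and each array left out. Replicates are single rats, and their number limits the precision.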

Additional observations from a re-analysis of the deposited data

How the results depend on the processing

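The count of iron genes called was 0 in each comparison under every alternative run, and no alternative brought a single one of them past the threshold. The direction of most differences was not fixed, since they are near 0. With arrays centred on their medians, CCl4 minus vehicle was -0.17 for Hamp, -0.35 for Ftl1 and -0.27 for Cp, CCl4+Rot minus CCl4 was 0.075 for Hamp, and CCl4+Rot minus vehicle was -0.10 for Hamp, -0.07 for Tf, -0.077 for Fth1 and -0.063 for Ftl1. That centring subtracts a single value per array, so it moves the difference of every probe set in a comparison by the same amount. The median of the probe sets present on every array moved from -0.01 to -0.37, from 0.02 to 0.27 and from -0.01 to -0.12 in these comparisons. The place of a gene relative to that median could therefore not change. With quantile normalization, CCl4 minus vehicle was 0.046 for Tf and 0.11 for Fth1, and CCl4+Rot minus CCl4 was -0.045 for Fth1, -0.14 for Ftl1, -0.093 for Cp and -0.025 for Tfrc. With array weights, CCl4 minus vehicle was 0.078 for Tf and 0.071 for Slc40a1, CCl4+Rot minus CCl4 was -0.037 for Tf, -0.45 for Tfrc and -0.13 for Ftl1, and CCl4+Rot minus vehicle was -0.045 for Hamp. With the mean over a gene's probe sets, Tfrc in CCl4+Rot minus CCl4 was -0.011.

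With each array left out in turn, CCl4 minus vehicle ran from -0.073 to 0.37 for Hamp, -0.024 to 0.81 for Tfrc, -0.27 to 0.12 for Tf, -0.19 to 0.034 for Fth1 and -0.11 to 0.22 for Ftl1. CCl4+Rot minus CCl4 ran from -0.35 to 0.044 for Hamp, -0.36 to 0.48 for Tfrc, -0.010 to 0.317 for Tfr2, -0.082 to 0.31 for Tf, -0.17 to 0.16 for Ftl1 and -0.014 to 0.16 for Cp. CCl4+Rot minus vehicle ran from -0.245 to 0.198 for Hamp, -0.005 to 0.12 for Tf and -0.018 to 0.068 for Fth1. Slc40a1 kept its direction in each comparison under this test (CCl4+Rot minus CCl4 from 0.37 to 0.83, though 0.20 with array weights), as did Tfr2 against vehicle.

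Of the 71 list genes, 1 (Heph) was called for CCl4 against vehicle with probe sets present on at least 3 arrays, beside 78 of 17545 probe sets. With robust estimation 3 were called (Heph, Stat3, Il6r), beside 348 of 31042 probe sets, and 8 with the methods' t-test unadjusted. For CCl4+Rot against CCl4 the t-test gave 3, and for CCl4+Rot against vehicle 4. The share of all probe sets under that t-test is not given here, so its counts cannot be set against it. For CCl4+Rot against vehicle the detection filter, robust estimation and array weights each called 2, Heph and Scara5. Beside these, 63 of 17545, 241 of 31042 and 73 of 31042 probe sets were called. The log2 change of Alas1 for CCl4 minus vehicle was 0.053 with array weights. The labels give rats of different groups some of the same numbers (a vehicle and a CCl4+Rot rat are both 4), without saying that these were paired. Deviations of same-numbered rats correlated at 0.02, 0.04 and 0.07, and with the number as a replicate block the count of iron genes called was 0 in each comparison and that of list genes 0. The brightest probe set that names the gene alone could not be used for Tf, Fth1 and Ftl1, which have none. The number of arrays limits what can be seen.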
